A study of Homo sapiens with 6 samples.

Results

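The 10 genes described here handle cellular iron and heme: FTH1 and FTL store iron, NCOA4 returns it from storage, TFRC and SLC11A2 take it up, SLC40A1 exports it, IREB2 and ACO1 sense it, and HMOX1 and BLVRB break heme down. They were picked by symbol from a table of 63241 genes, and all 10 were found. RNA came from MDA-MB-231, an established human line of triple-negative breast cancer with mesenchymal traits. Cells given 40 µM ArA, read here as the arachidonic acid of the series title, and cultured on for 24 h supplied 3 of the 6 libraries. The other 3 came from non-treated cells of the same line, and all were kept in DMEM with fetal bovine serum and antibiotics. The labels name no vehicle for these control cells, so any carrier of the fatty acid cannot be told apart from the fatty acid itself. They also do not say whether replicates were separate cultures, so each p-value rests on the spread among these libraries alone, and that spread may be technical. In bulk RNA, fewer cells of a kind and less RNA per cell cannot be told apart. Levels are in TPM, a fixed-total share of all transcripts that already allows for transcript length.

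Iron is held in cells inside ferritin, a hollow shell built from heavy chains (FTH1), which oxidise ferrous iron, and light chains (FTL), which help to lay the mineral core. NCOA4 is the receptor that carries ferritin to the lysosome when iron is needed. Transferrin-bound iron enters through the transferrin receptor (TFRC), leaves the endosome through the divalent metal transporter (SLC11A2) and exits the cell through ferroportin (SLC40A1). The iron regulatory proteins IRP1, encoded by ACO1, and IRP2, encoded by IREB2, bind a hairpin in messenger RNA, the iron-responsive element, when iron is scarce. Bound near the start of the ferritin and ferroportin messages they block translation, and bound in the tail of the TFRC message they protect it from decay. Heme oxygenase 1 (HMOX1) opens the heme ring and frees its iron, and biliverdin reductase B (BLVRB) reduces products of heme breakdown. Ferritin chains and HMOX1 are also textbook targets of NRF2, the activator of antioxidant genes, and HMOX1 is held down by the heme sensor BACH1. Polyunsaturated fatty acids such as arachidonic acid are the lipids whose iron-dependent peroxidation drives ferroptosis.

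The hairpins are shown because they divide the members into messages whose translation and messages whose stability iron controls, a difference that bears on what a transcript level can show. Each is printed 5′ to 3′ as a stretch of 30 bases of the GENCODE v29 transcript, with the 6 bases of the loop in capitals. The C bulge lies 6 bases before the loop.
FTH1: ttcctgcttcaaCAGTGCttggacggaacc
FTL: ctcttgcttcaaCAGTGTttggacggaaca
SLC40A1: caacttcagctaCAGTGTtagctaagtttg
TFRC, copy 1: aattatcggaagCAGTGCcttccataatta
TFRC, copy 2: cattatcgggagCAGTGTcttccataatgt
TFRC, copy 3: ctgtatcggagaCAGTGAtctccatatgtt
TFRC, copy 4: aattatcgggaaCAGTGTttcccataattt
SLC11A2: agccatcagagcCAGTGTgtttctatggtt

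On GRCh38 the FTH1 stretch lies at chr11:61967573-61967602 on the reverse strand, the FTL stretch at chr19:48965335-48965364 on the forward strand and the SLC40A1 stretch at chr2:189580660-189580689 on the reverse strand, all in the 5′ UTR. The 4 TFRC stretches lie in the 3′ UTR on the reverse strand, at chr3:196050978-196051007, chr3:196050574-196050603, chr3:196050509-196050538 and chr3:196050462-196050491, and the SLC11A2 stretch in its 3′ UTR at chr12:50988268-50988297 on the reverse strand. The search was for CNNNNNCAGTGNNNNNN on the transcript's own strand, where the 5 bases before and the 5 after the loop can pair, G with T included. All 5 pairs form in the FTH1, FTL, SLC40A1 and TFRC stretches and 4 of 5 in that of SLC11A2. IREB2 and ACO1 each hold 1 match with 4 pairs in the 3′ UTR, at chr15:78500969-78500998 and chr9:32452986-32453015 on the forward strand, and NCOA4, HMOX1 and BLVRB hold none. Of 19684 protein-coding genes, 260 (1.32%) hold a match with 5 pairs in their longest coding transcript, whose lengths differ, and 10.1% hold one with at least 4. A match is a description of the letters and shows no binding.

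Over the whole table, 12999 genes averaged 1 TPM or more over the 6 libraries and entered limma on log2(TPM + 1). Past an adjusted p of 0.05 were 2 genes higher (0.0154%) and 1 lower (0.00769%) in ArA libraries. Mitochondrially encoded transcripts took 26.9 to 32.1% of the TPM in ArA libraries and 31.6 to 32.9% in control libraries. Libraries also differed in how levels followed the GC content of transcripts. ArA replicate 1 and control replicate 2 had levels 0.14 and 0.18 higher on the log2 scale for each 10 points of GC, and the other 4 libraries had slopes of -0.13 to -0.03. Of the line's markers, VIM stood at 1434 to 1515 TPM in ArA and 1335 to 1441 TPM in control libraries, with the hormone receptor genes ESR1 at no more than 0.03 TPM and PGR at 0 in all 6. The sums over 5 mesenchymal markers, VIM included, were 2262 to 2395 TPM in ArA and 2138 to 2297 TPM in control libraries. Those over 5 luminal markers, ESR1 and PGR included, were 7.78 to 10.89 TPM and 6.69 to 10.31 TPM, so not all luminal markers were absent. Of 6 erythroid markers, 3 were at 0 in every library (HBB, HBA1 and HBA2), and the summed level was 0 TPM in ArA libraries and 0.01 to 0.23 TPM in control libraries. The sums over 5 macrophage and blood markers, 1.31 to 1.38 TPM in ArA and 0.91 to 1.52 TPM in control libraries, and over 5 hepatocyte markers, 0.11 to 0.38 and 0.09 to 0.44 TPM, were also low.

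Transcripts of both ferritin chains and of HMOX1 lay higher in every ArA library than in any control library, by 1.28- to 1.35-fold in the means, while the iron sensors, the ferritin receptor NCOA4 and the transporters had overlapping groups. BLVRB also separated the groups, by a narrow gap. Of all tested genes, 6.84% were higher in ArA libraries without overlap. After median-of-ratios scaling only FTH1 of the members kept its groups apart, where 2.93% of all genes did. No member passed the threshold over all genes. The limma adjusted p was at least 0.999 for each of the 9 members tested, and 0.0231% of all genes tested passed in either direction.

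FTL and FTH1 are among the most abundant transcripts of these cells, ranked 38 and 82 of all genes by mean TPM. FTH1 (ENSG00000167996, GRCh38 chr11:61959718-61967660, reverse strand) had 1569.48, 1702.85 and 1753.93 TPM in ArA libraries, against 1184.32, 1375.36 and 1356.19 TPM in control libraries. The lowest ArA value lay 194 TPM above the highest control value. The means were 1675 ± 95.2 TPM in ArA and 1305 ± 105 TPM in control libraries (SD, n = 3 each), a ratio of 1.28. This is a log2 fold change of 0.36 with an SE of 0.09 (95% interval 0.15 to 0.57, limma adjusted p = 0.999), which stood 39th of 12999 genes by p.

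FTL (ENSG00000087086, chr19:48965301-48966878, forward strand) had 2895.96, 2867.55 and 2816.16 TPM in ArA libraries, against 1759.17, 2474.39 and 2389.49 TPM in control libraries. The ArA libraries lay close together, and control replicate 1 was far below the other 2 control libraries. The means were 2860 ± 40.4 TPM in ArA and 2208 ± 391 TPM in control libraries (SD, n = 3 each), a ratio of 1.30. On the log2 scale FTL was 0.39 higher (SE 0.13, 95% interval 0.08 to 0.70, limma adjusted p = 0.999), and 0.23 without control replicate 1. Summed, both chains took 0.447 to 0.457% of all TPM in ArA libraries and 0.294 to 0.385% in control libraries. Leaving mitochondrially encoded transcripts out of the total, the shares were 0.625 to 0.658% and 0.439 to 0.566%.

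Both ferritin genes have many processed pseudogenes whose sequences nearly match theirs. The table lists 25 FTH1 and 17 FTL pseudogenes by symbol, of which 9 and 2 were above 0. The FTH1 pseudogenes summed to 0.0918 to 0.132% of the FTH1 level in ArA and 0.0979 to 0.260% of it in control libraries, and the FTL pseudogenes to at most 0.0366% of FTL. How reads matching several copies were assigned is not given in the sources used here, so the split between gene and pseudogene is uncertain. Adding the sums to FTH1 and FTL gave log2 fold changes of 0.36 and 0.39. Of the 128 genes averaging 1000 TPM or more, FTH1 and FTL included, 5 separated the groups with ArA higher, and the median log2 fold change was 0.04.

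**Figure D1:**
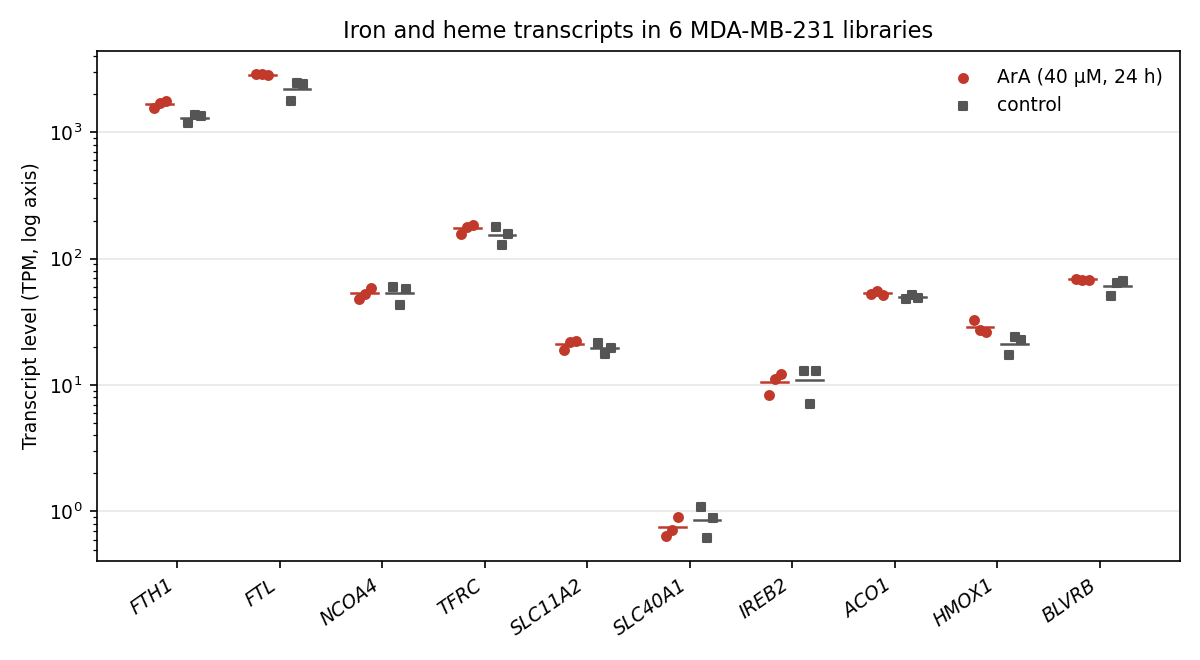
Transcript level in TPM on a log axis for the 10 members, with ArA libraries as red circles left of control libraries as grey squares and group means as bars. Only FTH1, FTL, HMOX1 and BLVRB have all 3 ArA points above all 3 control points, and levels run from under 1 TPM for SLC40A1 to a mean of 2860 TPM in ArA libraries for FTL.

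NCOA4, the ferritin receptor (ENSG00000266412, chr10:46005088-46030714, reverse strand), had 47.77, 52.64 and 58.89 TPM in ArA libraries, against 59.34, 43.29 and 57.58 TPM in control libraries. The groups overlapped almost wholly. The log2 fold change was 0.00037 (SE 0.15, limma adjusted p = 1.00), with a 95% interval that bounds the fold between 0.789 and 1.27. Its sign changed with the scaling, to -0.06 after median-of-ratios scaling. HERC2, a ubiquitin ligase that marks NCOA4 for destruction when iron is plentiful, averaged 24.2 ± 1.48 TPM in ArA and 22.6 ± 3.18 TPM in control libraries (SD, n = 3 each), with overlapping groups.

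TFRC, the uptake receptor (ENSG00000072274, chr3:196027183-196082189, reverse strand), had 157.76, 178.17 and 185.9 TPM in ArA libraries, against 179.33, 127.73 and 157.82 TPM in control libraries. Of the ArA values, 1 lay above all control values, and the lowest value belonged to control replicate 2. TFRC had a log2 fold change of 0.18 with an SE of 0.14 (95% interval -0.14 to 0.50, limma adjusted p = 0.999). Without control replicate 1 it was 0.29 and without control replicate 2 it was 0.04.

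SLC11A2, the divalent metal transporter (ENSG00000110911, chr12:50979401-51028566, reverse strand), had 19.09, 22.03 and 22.49 TPM in ArA libraries, against 21.52, 17.46 and 19.79 TPM in control libraries. The groups overlapped, with a log2 fold change of 0.11 and an SE of 0.12 (95% interval -0.17 to 0.39, limma adjusted p = 0.999). Without control replicate 2 the SLC11A2 value was 0.03, and without ArA replicate 1 or control replicate 1 it was 0.18. SLC11A2 is made in forms with and without the hairpin, which the gene-level values do not separate.

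SLC40A1, the only known iron exporter (ENSG00000138449, chr2:189560579-189583758, reverse strand), was the lowest member, at 0.64, 0.72 and 0.9 TPM in ArA libraries, against 1.09, 0.62 and 0.88 TPM in control libraries. Its mean was under the 1 TPM limit, so it was not among the genes tested. With no limit on low values its log2 fold change came to -0.08 with an SE of 0.15 and a 95% interval of -0.44 to 0.28. Its oxidase partners hephaestin (HEPH) and ceruloplasmin (CP) and the hormone hepcidin (HAMP), which drives SLC40A1 off the membrane, were all listed at 0.17 TPM or less in every library.

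The sensors differed in level and in how much they varied. IREB2 (ENSG00000136381, chr15:78437431-78501456, forward strand) had 8.42, 11.12 and 12.18 TPM in ArA libraries, against 12.98, 7.15 and 13.01 TPM in control libraries. The ArA values lay within the control range. IREB2 had a log2 fold change of -0.03 with an SE of 0.24 (95% interval -0.60 to 0.55, limma adjusted p = 0.999), the widest interval of the 9 members tested. It was positive, at 0.10 to 0.11, without ArA replicate 1, control replicate 1 or control replicate 3. ACO1 (ENSG00000122729, chr9:32384603-32454769, forward strand) had 52.78, 55.04 and 51.54 TPM in ArA libraries, against 48.19, 51.64 and 48.78 TPM in control libraries. The groups missed separating by 0.1 TPM. The ACO1 log2 fold change came to 0.10 with an SE of 0.08 (95% interval -0.09 to 0.29, limma adjusted p = 0.999). After median-of-ratios scaling it was 0.04 (95% interval -0.23 to 0.31). It was 0.03 after quantile normalization, 0.04 without mitochondrially encoded transcripts and 0.06 after removing each library's GC trend.

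HMOX1 (ENSG00000100292, chr22:35380361-35394214, forward strand) had 32.91, 27.17 and 26.16 TPM in ArA libraries, against 17.19, 23.83 and 22.87 TPM in control libraries. All 3 ArA values were above all control values, with ArA replicate 1 the highest and control replicate 1 the lowest of the 6. The ratio of means was 1.35, the largest of the members, and the log2 fold change came to 0.42 with an SE of 0.15 (95% interval 0.06 to 0.79, limma adjusted p = 0.999). Without control replicate 1 it was 0.28, with an interval of -0.04 to 0.61. HMOX2, the form that is usually made at a steady level, averaged 46.7 ± 1.40 TPM in ArA and 42.9 ± 3.81 TPM in control libraries (SD, n = 3 each), with overlapping groups.

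BLVRB (ENSG00000090013, chr19:40447765-40465840, reverse strand) had 69.34, 68.34 and 68 TPM in ArA libraries, against 51.06, 64.63 and 66.21 TPM in control libraries. The gap between the groups was 1.79 TPM, and the distance of the means came largely from control replicate 1. BLVRB had a log2 fold change of 0.18 with an SE of 0.11 (95% interval -0.09 to 0.45, limma adjusted p = 0.999) and of 0.07 without that library, which is below the median of all genes in the same comparison, 0.08.

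By mean level the order was FTL, FTH1, TFRC, BLVRB, NCOA4 and ACO1, HMOX1, SLC11A2, IREB2 and SLC40A1. NCOA4 and ACO1 could not be ranked, since the ACO1 values lay within the NCOA4 range, and BLVRB overlapped both in control libraries. HMOX1 and SLC11A2 ranges overlapped in control libraries and were apart in ArA libraries. All other neighbours were apart in both groups, IREB2 and SLC40A1 included.

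Of the 9 members tested, 8 had positive log2 fold changes, where 68.9% of all tested genes did, and IREB2 alone was negative, where 31.1% were. NCOA4 counts as positive at 0.00037, though its ratio of mean TPM was 0.994. The median of the 9 members was 0.18, against 0.06 over all tested genes. The groups did not overlap for 4 members, all higher in ArA libraries, where 6.84% of all tested genes were higher and 1.21% lower without overlap. FTH1, FTL and HMOX1 had an unadjusted limma p under 0.05 and were higher, where 2.78% of all tested genes passed in either direction and 2.28% were higher. With every library scaled to the same median of gene ratios, 51.0% of all genes were positive, 7 of the 9 members were positive, and only FTH1 kept its groups apart, as did 2.93% of all genes.

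**Figure D2:**
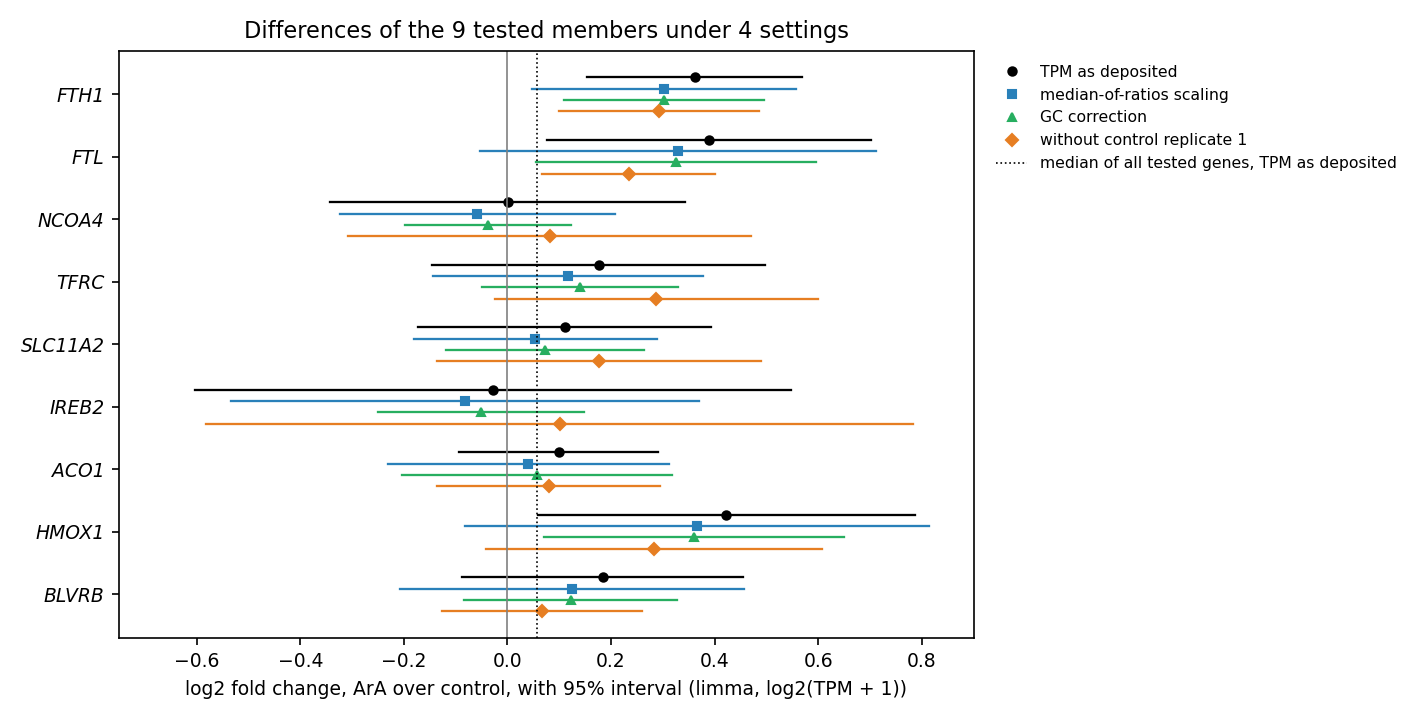
Log2 fold change of ArA over control with its 95% interval for the 9 members tested, from the TPM as deposited, after median-of-ratios scaling, after removing each library's GC trend and without control replicate 1. FTH1 has an interval above 0 in all 4 settings, FTL in 3 of 4 and HMOX1 in 2 of 4, while NCOA4 and IREB2 differ in sign between settings.

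Which library was lowest for a member went with its base composition. In 5 members, FTH1, FTL, ACO1, HMOX1 and BLVRB, control replicate 1 was the lowest of all 6 libraries, and their longest transcripts had a GC content of 45.7 to 58.2%. In the other 5, NCOA4, TFRC, SLC11A2, SLC40A1 and IREB2, control replicate 2 was the lowest, and their GC content was 38.3 to 43.1%. On the log2 scale control replicate 1 lay 0.51 under the mean of the 6 libraries for FTL, 0.49 for HMOX1, 0.33 for BLVRB and 0.32 for FTH1. Control replicate 2 lay 0.51 under the mean for IREB2, 0.35 for TFRC and 0.28 for NCOA4. These are the control libraries with the most negative and the most positive slope of level on GC content. With each library's GC trend removed, the log2 fold change was 0.30 for FTH1, 0.33 for FTL and 0.36 for HMOX1, and all 3 genes kept their groups apart. TFRC then separated the groups too, at 0.14 (95% interval -0.05 to 0.33), BLVRB no longer did, at 0.12, and 4.90% of all genes were higher without overlap. The 95% interval of IREB2 narrowed to -0.25 to 0.15 and that of NCOA4 to -0.20 to 0.12.

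**Figure D3:**
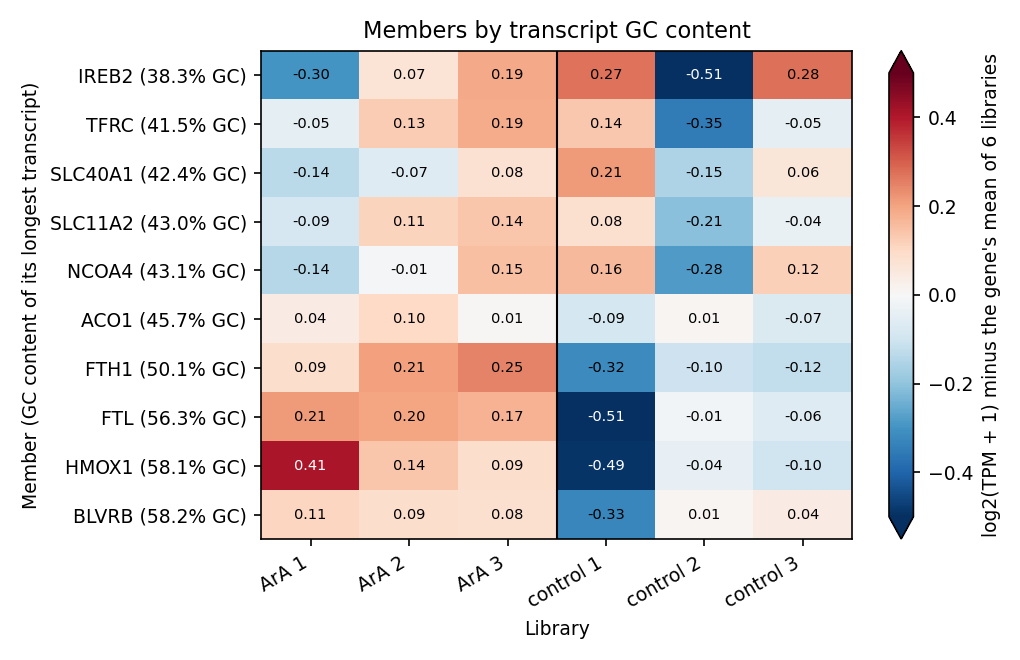
Deviation of each member's log2(TPM + 1) from its mean over the 6 libraries, with members ordered from low to high GC content of their longest transcript and ArA libraries left of control libraries. Control replicate 2 is lowest for the 5 members of lowest GC content and control replicate 1 for the other 5.

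A ratio of 2 transcripts in a library does not depend on how the library was scaled. For this reason 4 were compared by exact 2-sided permutation tests, where 3 against 3 libraries cannot go below p = 0.1. A ratio can still follow a library's GC slope where its transcripts differ in GC content. TFRC has 41.5%, against 50.1% for FTH1 and 56.3% for FTL, and IREB2 has 38.3%, against 45.7% for ACO1. In both of these ratios control replicates 1 and 2 were the extremes. The cause was not tested, and no ratio was computed after GC correction. The FTH1 to FTL ratio was 0.542, 0.594 and 0.623 in ArA libraries, against 0.673, 0.556 and 0.568 in control libraries (exact p = 0.8, and 0.8 adjusted over the 4 ratios). The groups overlapped. Ferritin, as FTH1 plus FTL, stood at 28.3, 25.7 and 24.6 times the TFRC level in ArA libraries, against 16.4, 30.1 and 23.7 times in control libraries (exact p = 0.6, adjusted 0.8). Control libraries lay on both sides of all ArA libraries.

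The IREB2 to ACO1 ratio was 0.160, 0.202 and 0.236 in ArA libraries, against 0.269, 0.138 and 0.267 in control libraries (exact p = 0.8, adjusted 0.8), again with the ArA values inside the control range. The HMOX1 to HMOX2 ratio was 0.701, 0.600 and 0.545 in ArA libraries, against 0.436, 0.507 and 0.539 in control libraries. It was the only ratio of the 4 whose groups did not overlap, by 0.545 in the lowest ArA against 0.539 in the highest control library. Its exact p was 0.1, the smallest possible, and 0.4 adjusted over the 4 ratios.

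**Figure D4:**
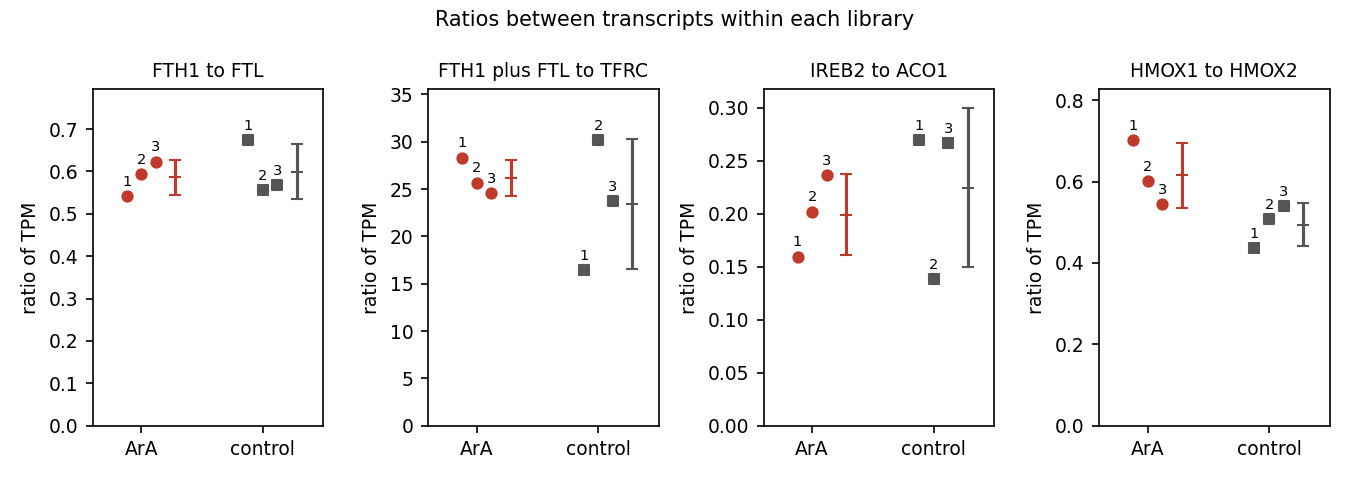
Ratios of TPM within each library for 4 pairs of transcripts, with replicate numbers beside the points, ArA left of control, and the mean and SD of 3 libraries at the right of each group. Only HMOX1 to HMOX2 has all ArA points above all control points, and control replicates 1 and 2 lie far apart in the first 3 panels.

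Around the 10 members, 79 other genes of iron and heme handling were found, of which 65 were tested. None passed over all genes by limma, and 2 had an unadjusted p under 0.05. Of the 65, 51 had positive log2 fold changes, where 68.9% of all tested genes did. The groups did not overlap for 10, all higher in ArA libraries, where 6.84% of all genes were. Their median of 0.06 equalled that of all tested genes to 2 decimals. With median-of-ratios scaling 39 of them were positive, where 51.0% of all genes were, and 4 separated the groups, where 2.93% did.

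All 5 heme breakdown genes were positive as deposited, where 68.9% of all tested genes were. They were also positive under 3 other scalings, where 49.0 to 51.8% of all genes were. Their median log2 fold change was 0.22 as deposited, and 0 passed the threshold. As deposited 3 separated the groups, where 6.84% of all genes were higher without overlap. With median-of-ratios scaling 1 did (2.93% of all genes), with quantile normalization 1 (3.01%) and without mitochondrially encoded transcripts 2 (3.45%). Besides HMOX1 and BLVRB, biliverdin reductase A (BLVRA), the main enzyme that turns biliverdin into bilirubin, had 72.54, 78.95 and 87.59 TPM in ArA libraries, against 69.27, 63.53 and 71.01 TPM in control libraries, without overlap. POR, the reductase that feeds electrons to heme oxygenase, averaged 136 ± 16.4 TPM in ArA and 116 ± 19.3 TPM in control libraries (SD, n = 3 each), with overlap.

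Of 11 heme synthesis genes tested, 9 were positive, or 6 to 7 when rescaled, and 0 passed. ABCB6, a porphyrin transporter, had 15.63, 17.37 and 16.27 TPM in ArA libraries, against 15.18, 11.44 and 12.81 TPM in control libraries, with a log2 fold change of 0.31 (SE 0.13, limma adjusted p = 0.999). CPOX, which acts late in the pathway, averaged 32.4 ± 1.53 TPM in ArA and 28.9 ± 0.708 TPM in control libraries, and ALAS1, the rate-limiting first enzyme, 115 ± 2.51 and 105 ± 7.59 TPM (SD, n = 3 each). ABCB6 and CPOX separated the groups and ALAS1 did not, where 6.84% of all tested genes were higher without overlap. With median-of-ratios scaling 0 of the 11 separated the groups (2.93% of all genes). With quantile normalization 1 did (3.01%), and without mitochondrially encoded transcripts 1 (3.45%).

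Of 5 heme transport genes, 4 were positive, or 2 to 3 when rescaled, and 0 passed. SLC48A1, which moves heme out of lysosomes, averaged 13.8 ± 0.445 TPM in ArA and 11.9 ± 0.958 TPM in control libraries (SD, n = 3 each) without overlap. It was the only gene of this list to separate the groups, where 6.84% of all tested genes were higher without overlap. When rescaled 0 of the list did, where 2.93 to 3.45% of all genes did. SLC46A1, a folate carrier that also moves heme, lay at 16.22 to 18.08 TPM in ArA and 13.51 to 16.55 TPM in control libraries, and the heme exporter FLVCR1 averaged 9.46 ± 0.820 and 9.22 ± 2.39 TPM, both with overlap.

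All 7 tested iron uptake genes were positive in the deposited values, with a median of 0.11, and in the 3 rescaled sets, but no gene of the list separated the groups or passed. The endosomal ferrireductase STEAP3 averaged 33.2 ± 3.13 TPM in ArA and 28.9 ± 2.98 TPM in control libraries, and SLC39A14, a carrier of iron not bound to transferrin, 55.7 ± 2.83 and 49.8 ± 5.23 TPM (SD, n = 3 each). Without control replicate 2, 4 of the 7 uptake genes were positive with a median of 0.03. Without control replicate 1 the median was 0.23, and without ArA replicate 1 it was 0.17. In iron sensing, IREB2, HFE and FBXL5, the ligase subunit that marks IRP2 for destruction, were negative of 4 tested genes in all 4 sets, with 0 past the threshold and a median of -0.02 as deposited. Without control replicate 1, or without ArA replicate 1, 3 of the 4 were positive, with medians of 0.08 and 0.11. HFE, a regulator of hepcidin, lay at 10.11 to 11.91 TPM in ArA and 10.9 to 12.47 TPM in control libraries. Of 4 storage genes tested 4 were positive, or 2 when rescaled, and 0 passed. Their median was 0.20, and 0.10 without control replicate 1, where 2 were positive. The iron chaperone PCBP1 averaged 213 ± 4.56 TPM in ArA and 211 ± 21.7 TPM in control libraries, its relative PCBP2 281 ± 4.32 TPM in ArA and 275 ± 31.7 TPM in control libraries (SD, n = 3 each), and mitochondrial ferritin (FTMT) was at 0 in all 6 libraries.

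Iron-sulfur cluster assembly made up a mitochondrial and a cytosolic list. Of 20 tested mitochondrial genes, 14 were positive as deposited, against 6 to 7 when rescaled, and 0 passed. Their median was 0.04, but -0.06 without control replicate 2 and 0.16 without ArA replicate 1. NFS1, the desulfurase that supplies sulfur, had 15.08, 19.6 and 16.94 TPM in ArA libraries, against 12.29, 14.75 and 14.06 TPM in control libraries, without overlap. The mitochondrial iron importer SLC25A28 averaged 29.8 ± 1.60 TPM in ArA and 26.1 ± 0.760 TPM in control libraries, also without overlap, and the cochaperone HSCB 24.2 ± 2.34 and 22.1 ± 0.676 TPM (SD, n = 3 each). Of 8 cytosolic assembly genes, 6 were positive, or 4 to 6 when rescaled, and 0 passed. CIAPIN1 stood at 59.69 to 60.57 TPM in ArA and 50.37 to 59.2 TPM in control libraries, without overlap, NUBP1 at 33.7 ± 0.822 and 31.7 ± 2.81 TPM and CIAO2B at 103 ± 3.01 and 98.5 ± 5.59 TPM. The groups did not overlap for 2 mitochondrial and 1 cytosolic genes, where 6.84% of all tested genes were higher without overlap. When rescaled the counts were 1 to 2 and 0, where 2.93 to 3.45% of all genes were.

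Of 8 tested iron and heme genes with a known NRF2 or BACH1 link, 8 were positive and 7 separated the groups, all but ferrochelatase (FECH), where 6.84% of all tested genes were higher without overlap, with 0 past the threshold and a median of 0.27. Rescaled by median of ratios, 8 were positive and 2 separated the groups, against 2.93% of all genes, and quantile normalization gave 8 and 4, against 3.01%. Without mitochondrially encoded transcripts, 7 of 9 were positive and 4 separated the groups, against 3.45%. FTH1, FTL, HMOX1 and BLVRB belong to this list, which was drawn up with earlier results of these data known, so its count is no independent evidence. Among heme and redox regulators 5 of 6 were positive, or 4 to 5 when rescaled, and 0 passed. MAFG and MAFK, small partners of NRF2 and BACH1, averaged 18.1 ± 1.43 and 18.4 ± 0.889 TPM in ArA and 15.8 ± 0.278 and 16.9 ± 0.385 TPM in control libraries (SD, n = 3 each), each without overlap, and MAFF averaged 26.3 ± 1.23 and 24.8 ± 1.48 TPM with overlap. As deposited 2 of the 6 regulators separated the groups (6.84% of all genes). With median-of-ratios scaling 1 did (2.93%), with quantile normalization 0 (3.01%) and without mitochondrially encoded transcripts 2 (3.45%). NFE2L2, which encodes NRF2, and BACH1, both named after their values were seen, overlapped between groups. NFE2L2 had 13.79, 19.67 and 20.51 TPM in ArA libraries, against 19.16, 11.32 and 19.47 TPM in control libraries, and BACH1 had 2.76, 3.76 and 5.09 TPM, against 4.33, 2.3 and 4.6 TPM.

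Of 6 tested transcripts known to carry an iron-responsive element, 6 were positive as deposited and when rescaled (of 7 tested without mitochondrially encoded transcripts) and 0 passed, with a median of 0.27. The groups did not overlap for 3, or for 2 after median-of-ratios scaling, where 6.84% and 2.93% of all genes were higher without overlap. The third beside FTH1 and FTL was EPAS1, the hypoxia factor HIF-2 alpha, whose hairpin lies in the 5′ UTR and which had 21.21, 21.59 and 22.21 TPM in ArA libraries, against 16.29, 16.17 and 16.4 TPM in control libraries. Both groups were tight and far apart, with a ratio of means of 1.33 and a log2 fold change of 0.39 (SE 0.09, 95% interval 0.18 to 0.60, limma adjusted p = 0.999). The transcripts with a hairpin in the 3′ UTR, TFRC and SLC11A2, overlapped between groups.

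**Figure D5:**
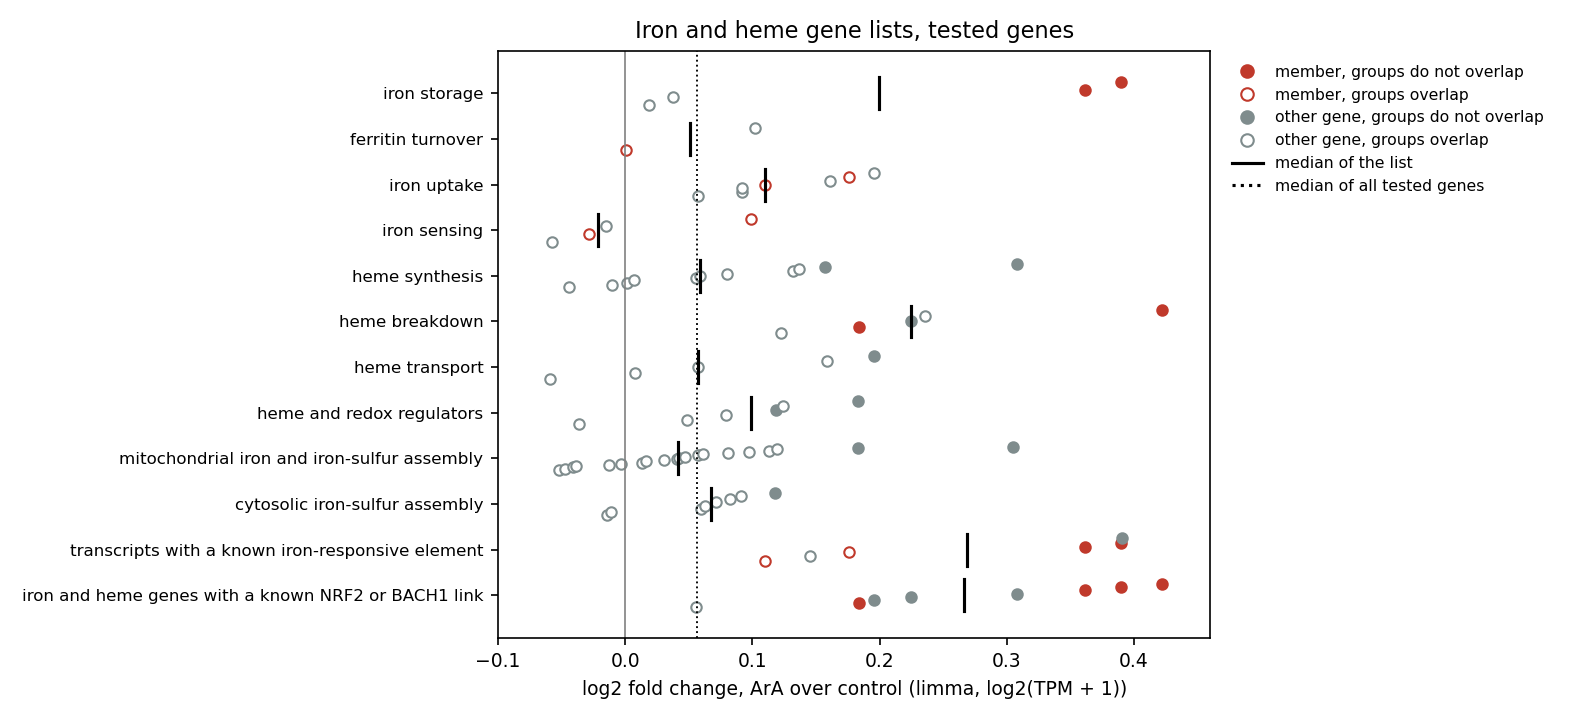
Log2 fold change of ArA over control for each tested gene of 12 iron and heme lists, with the 9 tested members in red, filled symbols for genes whose groups do not overlap, bars for list medians and a dotted line for the median of all tested genes. FTH1, FTL and HMOX1 lie at 0.36 to 0.42, and most genes of the synthesis, transport and iron-sulfur lists have open symbols.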

How the data were processed

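The authors deposited 1 table of TPM per gene for 6 libraries. Per the submitters' processing notes, HISAT2, StringTie, RSEM and hg38 were used. Versions, roles, annotation and strand setting were not given in the sources used here. Depth is unknown, because TPM keeps no counts. Since each library sums to a fixed total, fewer abundant transcripts leave larger shares to the rest. Lines naming no gene (50) were dropped, and 63241 genes remained. The 12999 genes averaging 1 TPM or more were fitted on log2(TPM + 1), a scale that understates differences of low genes, with limma 3.58.1 in R 4.3.3 (eBayes with trend, with treatment alone in the model). P-values are 2-sided, with Benjamini-Hochberg adjustment across those genes. Fold differences are ratios of mean TPM. Coordinates, GC content and hairpins came from GENCODE v29 on GRCh38, matched by Ensembl identifier, and 97.2% of tested genes had a GC value. The GC correction subtracted each library's natural spline on GC content with 5 degrees of freedom. The limma step was tested on simulated data. The members, lists and alternatives were chosen with earlier results of these data known. All 10 members are named, with up to 3 genes of smallest p from each wider list, and other genes were named after their values were seen.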

Additional observations from a re-analysis of the deposited data

How the results depend on the processing

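No member and no gene of the wider lists passed an adjusted p of 0.05 under any of the alternatives run (3 other scalings, pseudocounts of 0.1 and 5, no filter, a 5 TPM minimum for the mean, the replicate block, eBayes without trend or robust, GC correction alone and with the block, and libraries left out). FTH1, FTL, HMOX1, BLVRB, TFRC, SLC11A2 and ACO1 stayed positive under all of these. The filters, the replicate block and the eBayes variants cannot change a log2 fold change, so their signs were fixed in advance. Leaving out 1 library gave 0.29 to 0.41 for FTH1, 0.23 to 0.48 for FTL, 0.28 to 0.51 for HMOX1, 0.07 to 0.25 for BLVRB, 0.03 to 0.18 for SLC11A2, 0.04 to 0.29 for TFRC, 0.07 to 0.13 for ACO1, -0.14 to 0.082 for NCOA4 and -0.29 to 0.11 for IREB2. NCOA4 also turned negative with median-of-ratios scaling (-0.058), quantile normalization (-0.067), TPM rescaled without mitochondrially encoded genes (-0.064), a pseudocount of 5 (-0.00025), GC correction alone or with the replicate block (-0.038) and without both ArA replicate 1 and control replicate 2 (-0.07). The cause was not tested.

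Members with separated groups numbered 1 with median-of-ratios scaling and 2 with quantile normalization, against 4 as deposited. Of all tested genes, 2.93%, 3.01% and 6.84% were higher without overlap, in the same order. Leaving out 1 library, the log2 difference of the ratios ran from -0.079 to 0.059 for FTH1 to FTL, -0.033 to 0.41 for FTH1 plus FTL to TFRC, -0.45 to 0.034 for IREB2 to ACO1 and 0.22 to 0.40 for HMOX1 to HMOX2. Over all genes, 2 higher and 1 lower passed. Higher genes numbered 1 with median-of-ratios scaling, no filter or eBayes without trend and 4 with GC correction, and lower genes 0 with the 5 TPM minimum. Without single libraries the counts were 0 to 3 higher and 0 to 5 lower, and without both ArA replicate 1 and control replicate 2 they were 6 and 10. Whether same-numbered libraries were paired is not known. Their deviations from the group means correlated at -0.16, -0.28 and 0.11, and not every library correlated best with its own number. Deviations from a mean of 3 libraries are tied to each other, so these values cannot settle the pairing. With the replicate block, 0 genes passed in either direction and the members' log2 fold changes were the same.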
